A study of Mus musculus with 1483 samples.

Results

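Collagen genes were taken as the gene columns whose symbol is Col, digits, the letter a and digits, which gave 44 of the 45768 genes of the table. All 44 had at least 1 read in some cell. They were read in 1483 single cells from 33 C57Bl/6J mice, isolated from the tissue labelled VISp (the usual abbreviation of primary visual cortex) and sorted for the yellow fluorescent protein SYFP2. Each mouse carried 1 of 11 enhancers, given as its genotype, in an adeno-associated virus (AAV) that drove SYFP2, so the enhancer set which neurons were collected. The genotypes eHGT_017h, eHGT_019h, eHGT_023h, eHGT_058h, eHGT_078h, eHGT_079h, eHGT_128h, eHGT_140h and hDLXI56i are each represented by 3 mice, with 4 mice for eHGT_064h and 2 for eHGT_082h. All groups share the strain, the tissue, the reporter and the viral label, and the age of the mice is not given in the sources used here. Groups differ in the cells that the enhancer admits, so a group is not a sample of the whole cortex.

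Collagens are secreted or membrane-bound proteins built from chains that wind around each other into a helix. Fibril-forming collagens make the cables of connective tissue, fibril-associated collagens bind to them, network collagens (types IV and VIII) form sheets such as the basement membrane, and transmembrane collagens sit in the cell surface and can be shed. In brain most basement membrane collagen is made by vessels and the leptomeninges, while neurons are known to secrete a small number of collagens that act at synapses, among them the fibril-associated Col19a1.

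Values are CPM, reads of a gene scaled to the same total in every cell. A mouse's value is the mean over its cells, and a profile is the mean over the cells of 1 class in 1 mouse, made where at least 5 cells were present. Inhibitory cells had at least 100 CPM of Gad1 or Gad2 with Slc17a7 below it (80.7% of the cells), and excitatory cells the reverse (19.02%). Inhibitory cells were divided by Pvalb, Sst, Vip and Lamp5, whichever led at 100 CPM or more with the others at no more than 25% of it. Excitatory cells were divided by the layer genes Rorb and Fezf2 at 50 CPM, and those with neither are called OtherExc, while cells with both were left out. The Pvalb, Sst, Vip, Lamp5, Rorb, Fezf2 and OtherExc classes held 40.8%, 19.4%, 4.05%, 11.7%, 4.45%, 3.78% and 8.09% of the cells, in 21, 17, 4, 7, 5, 3 and 7 profiles, and 116 cells fell in no class. The smaller classes thus had 60 Vip, 66 Rorb, 56 Fezf2 and 120 OtherExc cells. Of 5 marker genes per class, 5 were highest in their own class for Vip, Lamp5 and Rorb, 4 for Sst (not Npy) and Fezf2 (not Bcl11b), and 3 for Pvalb (not Erbb4 or Pthlh). Cux2 and Camk2a, markers listed for OtherExc, were not highest in it, so OtherExc is known by its rule alone. All Fezf2 profiles came from eHGT_078h, so that class and that enhancer cannot be told apart. Cells held 833 to 1018507 reads with a median of 586338, where 1 read is 1.71 CPM, and 16 cells had fewer than 100000. A lower mean can come from fewer cells with a gene or from less RNA per cell. For that reason the share or count of cells at 10 CPM or more is given for many genes. Some of these counts cover only cells without a vascular marker, meaning none of 13 endothelial, mural or leptomeningeal markers at 10 CPM or more.

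Neurons of this table carried a few collagen genes at a time, led by Col19a1. In the mean of all mice the 44 genes summed to 243.8 CPM, of which Col19a1 made up 56.7%. Only Col19a1 (138.1 CPM), Col25a1 (28.6 CPM) and Col26a1 (14.7 CPM) reached 10 CPM in that mean, 24 genes were under 1 CPM, and 35 were at 10 CPM or more in fewer than 5% of cells. Per kilobase of exon, Col19a1 led with 20.1 CPM, followed by Col9a2 (2.49), Col25a1 (2.21) and Col26a1 (1.79). At least 1 collagen gene was at 10 CPM or more in 1462 cells (98.6%), the median cell had 3 and the highest had 13. The classical fibrillar genes of connective tissue were close to absent, with Col1a1 at that level in 1 cell, Col1a2 in 2 cells and Col3a1 in 0 cells.

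Summed over all 44 genes, the class means were 262.04 CPM in Pvalb, 287.3 in Sst, 256.2 in Vip, 249.98 in Lamp5 and 246.5 in Rorb profiles, against 144.8 in OtherExc and 69.01 in Fezf2. The near-equal sums hid different genes. Fibril-associated collagens made 196.3 CPM of the Pvalb sum and 52.4 CPM of the Rorb sum, while basement membrane chains made 4.94 and 38.97 CPM. Fibril-forming genes had their highest mean in Vip, 56.6 ± 47.8 CPM (SD, n = 4), with profiles from 11.2 to 99.9 CPM. The lowest of these lay inside the Sst range of 4.60 to 43.5 CPM. Beaded filament genes had their highest mean in OtherExc, 34.9 ± 30.9 CPM (SD, n = 7), with profiles from 12.1 to 100.3 CPM. Vip profiles of the beaded filament genes overlapped these, at 6.61 to 61.04 CPM. Neither ranking was tested.

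**Figure D1:**
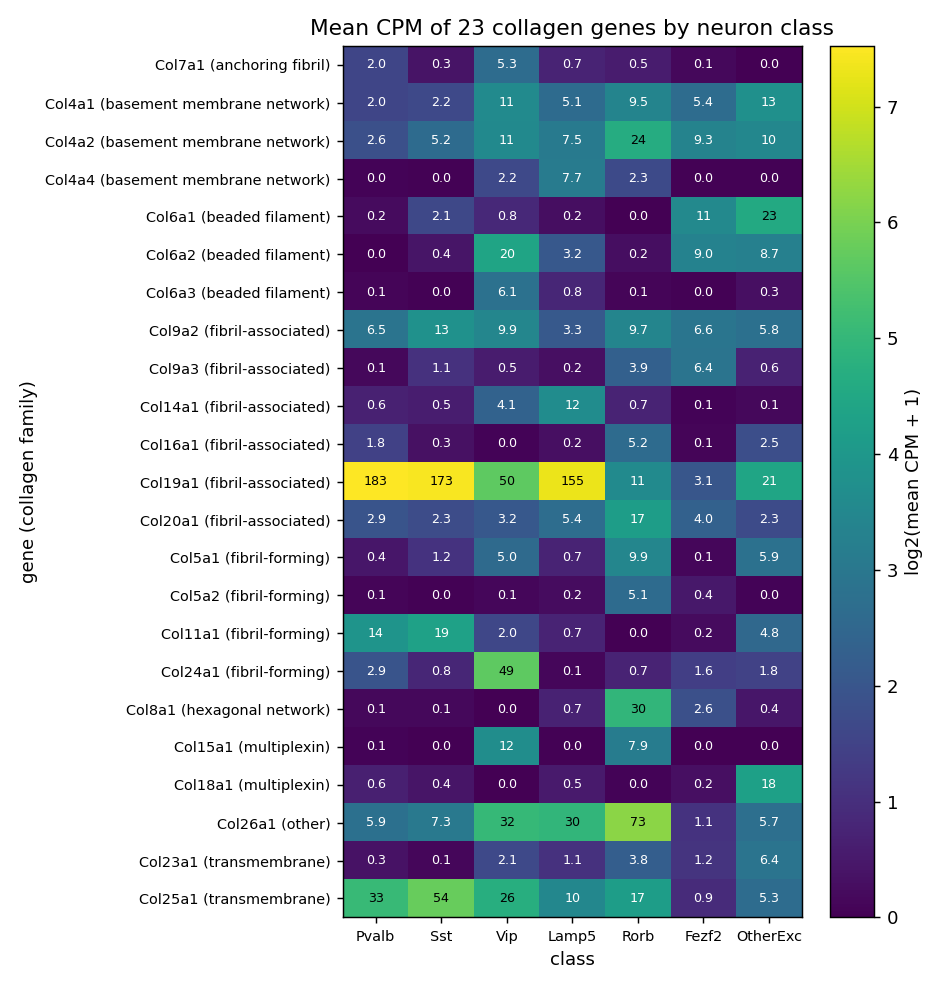
Mean CPM of 23 collagen genes (rows) in 7 neuron classes (columns). Each cell prints the unweighted mean over the mice of that class and is coloured by log2(mean CPM + 1), brighter where higher. Col19a1 is brightest in Pvalb (183.1 CPM), Sst and Lamp5, and most other genes stand out in 1 or 2 classes.

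Collagen expression differed between the neuron classes for most genes that could be tested. Of 38 genes that reached 1 CPM in a profile of at least 2 mice, 29 differed between the 7 classes at an adjusted p under 0.05 (limma across all genes, Benjamini-Hochberg). The share over all 21787 genes tested was 68.9%, so this count is near the background. Against the mean of the other 6 classes, a call also needed a log2 difference of at least 1 on the log2(CPM + 1) scale, which understates the change of low genes. Pvalb profiles had 3 collagen genes higher and 7 lower (background 4.88% and 6.32% of all genes), and Sst profiles 3 higher and 6 lower (3.52% and 4.85%). Vip profiles had 7 higher and 1 lower (5.96% and 6.29%), and Lamp5 profiles 4 and 4 (5.64% and 4.98%). Among excitatory classes, Rorb had 8 higher and 4 lower (12.3% and 6.22%), Fezf2 4 and 4 (4.68% and 4.26%) and OtherExc 7 and 3 (6.75% and 4.39%). The 3 excitatory classes against the 4 inhibitory ones gave 7 higher and 4 lower (7.98% and 5.24%), or 14 and 5 by limma voom on recovered reads: Col6a1 (1.99 on the log2 scale), Col8a1 (1.89), Col22a1, Col9a3 (1.16), Col4a1, Col18a1 (1.05) and Col4a2 were higher, and Col19a1, Col25a1, Col11a1 and Col24a1 (-1.09) were lower. As shares of the 38 genes these counts run from 2.63% to 21.1%. A call is said to be lost within mice where it did not pass with the mouse as a fixed effect, when only differences between classes of the same animal count. Classes that share no animal are then compared through classes that do. No mouse with a Fezf2 profile had an inhibitory profile, so Fezf2 differences within mice against the other 6 classes are partly indirect. A lost call can keep its size, so the difference within mice stands beside it. Among the excitatory calls, Col9a3 turned to -0.37 within mice, and Col18a1 was lost within mice (0.72, limma adjusted p = 0.369) and without 1 eHGT_058h mouse (0.93). Col24a1 was 0.29 when a profile needed at least 10 cells, which left no Vip or Rorb class in the fit. The median log2 difference of the 38 genes was -0.23 in Pvalb (all genes -0.05), -0.40 in Sst (-0.07), -0.11 in Vip (-0.12), -0.25 in Lamp5 (0.01), 0.41 in Rorb (-0.01), -0.17 in Fezf2 (-0.04), -0.11 in OtherExc (-0.03) and 0.15 for excitatory against inhibitory classes (0.03).

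Between the 11 enhancers, with all cells of a mouse averaged, 21 of 32 testable collagen genes differed, against 53.4% of 18932 genes. Col19a1 was lowest in the groups with the most excitatory cells, and whether the cells collected account for this was not tested. The eHGT_078h mice were at 10.2, 2.55 and 27.9 CPM, and the eHGT_058h mice at 61.8, 22.4 and 21.3 CPM. These 6 mice lay below all mice of the other 9 enhancers, which ran from 75.6 to 257.7 CPM. Of 140 cells from eHGT_078h, 72 were OtherExc, 46 Fezf2 and 11 Rorb cells and 0 were Pvalb cells, and of 120 from eHGT_058h, 41 were Rorb and 29 OtherExc cells. Col26a1 was highest in the eHGT_058h mice, at 30.6, 59.7 and 54.5 CPM, and lowest in the eHGT_140h mice, at 2.95, 2.57 and 3.04 CPM. The highest mouse outside eHGT_058h, of hDLXI56i, had 27.4 CPM of Col26a1, so eHGT_058h did not overlap the other groups.

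**Figure D2:**
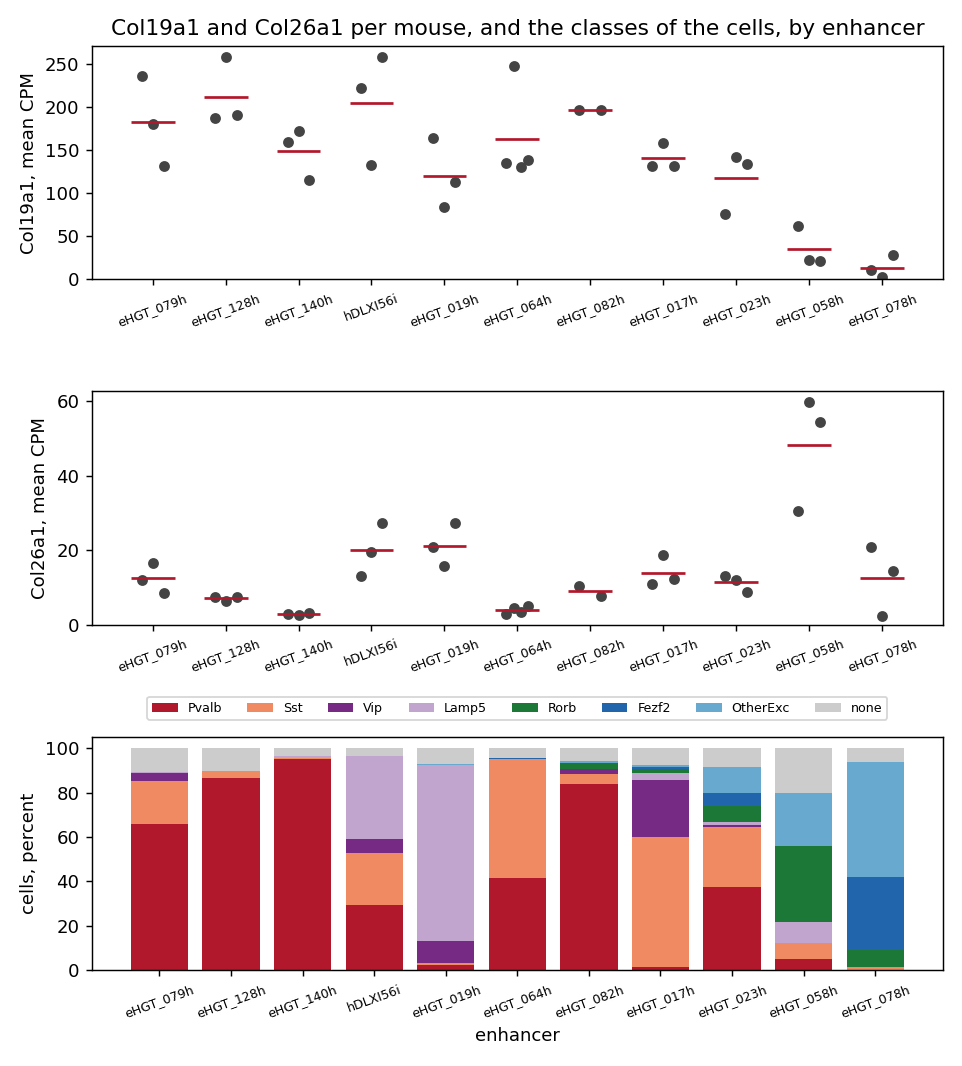
Mean CPM per mouse of Col19a1 and Col26a1 (1 point per mouse) in the 11 enhancer groups, with the share of each group's cells in the 7 classes as stacked bars. The eHGT_078h and eHGT_058h groups, which hold most of the excitatory cells, have the lowest Col19a1, and eHGT_058h has the highest Col26a1.

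Inside 1 class few genes of any kind differed between enhancers. Among Pvalb profiles of 7 enhancers (20 mice), 0 of 18 collagen genes differed by limma at an adjusted p under 0.05, with 4 at an unadjusted p under 0.05 (Col16a1, Col25a1, Col26a1 and Col4a2). The background there was 1.42% of 16424 genes. Among Sst profiles of 5 enhancers (16 mice), 0 of 21 differed, with 3 at an unadjusted p under 0.05 (Col26a1, Col6a1 and Col6a6), against 0.785% of 16938 genes. Col19a1 in Pvalb cells, for example, averaged from 147.8 ± 27.6 CPM in eHGT_140h (SD, n = 3) to 211.3 ± 16.3 in eHGT_082h (SD, n = 2) among enhancers with more than 1 profile. A p that misses the threshold does not show that the enhancers gave the same levels.

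Fibril-associated collagens do not make fibrils themselves. Col19a1 (chr1:24261890-24587472, minus strand) was the collagen of Pvalb, Sst and Lamp5 interneurons. Its profiles ran from 98.8 to 315.7 CPM in Pvalb (median 171.5), from 67.2 to 461.8 in Sst (median 146.3) and from 92.9 to 229.8 in Lamp5 (median 152.4). Vip profiles were lower, at 58.6 and 94.5 CPM in eHGT_017h, 24.9 in eHGT_019h and 21.3 in hDLXI56i. Lamp5, Pvalb and Sst ranges overlapped throughout, whereas only 1 Vip profile reached the lower end of any of them. Excitatory profiles were lower still: 2.73 to 24.5 CPM in Rorb (5 profiles), 1.02, 0.175 and 8.03 in Fezf2, and 4.09 to 47.1 in OtherExc (7 profiles). The mean share of a mouse's cells with Col19a1 at 10 CPM or more was 96.8% ± 6.44 in Pvalb (SD, n = 21) and 90.9% ± 11.4 in Sst (SD, n = 17). It was 92.9% ± 8.80 in Lamp5 (SD, n = 7), 31.2% ± 10.7 in Vip (SD, n = 4) and 13.9% ± 19.7 in Fezf2 (SD, n = 3). Among cells without a vascular marker, 51 of 115 OtherExc, 15 of 59 Rorb and 19 of 51 Vip cells had Col19a1 at that level. By this count OtherExc lay above Vip and Rorb below it. The excitatory classes averaged 11.7 CPM against 140 in the inhibitory ones, a log2 difference of -3.85 ± 0.23 (SE; limma adjusted p = 2.57e-23). Against the other 6 classes, Col19a1 was higher in Pvalb (2.65 on the log2 scale), Sst (2.43) and Lamp5 (2.40) and lower in Rorb (-2.15), Fezf2 (-4.31) and OtherExc (-1.23). Against the other inhibitory classes alone, Vip was lower (-1.95) and the Pvalb, Sst and Lamp5 differences fell below the log2 threshold of 1 (0.84, 0.58 and 0.54). Within the excitatory classes, OtherExc was higher (1.72) and Fezf2 lower (-2.25), and the OtherExc call against all 6 classes was lost within mice (-0.69).

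Col9a2, a chain of the fibril-decorating type IX collagen, was spread over all classes. Sst profiles had the highest mean, 12.98 ± 4.99 CPM (SD, n = 17), and Lamp5 profiles the lowest, 3.29 ± 3.74 (SD, n = 7), with a Lamp5 difference of -1.38 ± 0.30 (SE; limma adjusted p = 1.82e-04) that was lost within mice (-0.97). Col9a3, another chain of the same collagen, was lower. Its Fezf2 profiles were at 6.12, 12.2 and 0.890 CPM (1.84 ± 0.47 on the log2 scale, SE; limma adjusted p = 0.00323), and the Fezf2 call was lost within mice (0.46). A Rorb profile at 12.96 CPM and an Sst profile at 12.7 CPM lay above every Fezf2 profile of Col9a3. Across all cells, 424 had Col9a2 at 10 CPM or more, 41 had Col9a3 and 13 had both. Of the cells with Col9a3, 31.7% had Col9a2, near the 28.6% of all cells that had it.

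Col14a1, a fibril-binding collagen, had its highest class mean in Lamp5. Lamp5 profiles were at 19.1, 14.95 and 6.77 CPM in eHGT_019h, 1.61 in eHGT_058h and 1.38, 21.9 and 16.1 in hDLXI56i. Profiles of Pvalb, Sst, Rorb, Fezf2 and OtherExc stayed at or under 4.98 CPM, and 1 Vip profile reached 16.2. The Lamp5 profiles at 1.61 and 1.38 CPM lay under that 4.98 CPM. The Lamp5 difference was 2.73 ± 0.34 (SE; limma adjusted p = 6.73e-10), and the share of Lamp5 cells at 10 CPM or more was 19.4% ± 13.5 (SD, n = 7). Col20a1, another member of this family, was highest in Rorb cells. The Rorb profiles were at 11.8 CPM in eHGT_023h, 15.2, 9.31 and 21.2 in eHGT_058h and 28.3 in eHGT_078h. Every other profile of Col20a1 was at or under 8.13 CPM, so the Rorb profiles did not overlap the rest (2.25 ± 0.35, SE; limma adjusted p = 2.26e-07). Of 59 Rorb cells without a vascular marker, 27 had Col20a1 at 10 CPM or more. Col16a1 was lower and uneven, with Rorb profiles at 7.98, 0, 7.64, 0 and 10.5 CPM (1.37 ± 0.37, SE; limma adjusted p = 0.00191). Its Rorb call was lost without the eHGT_078h mouse that gave 10.5 CPM. OtherExc profiles of Col16a1 were also called higher (1.03), and within mice the difference was 1.17 with an adjusted p of 0.0921.

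**Figure D3:**
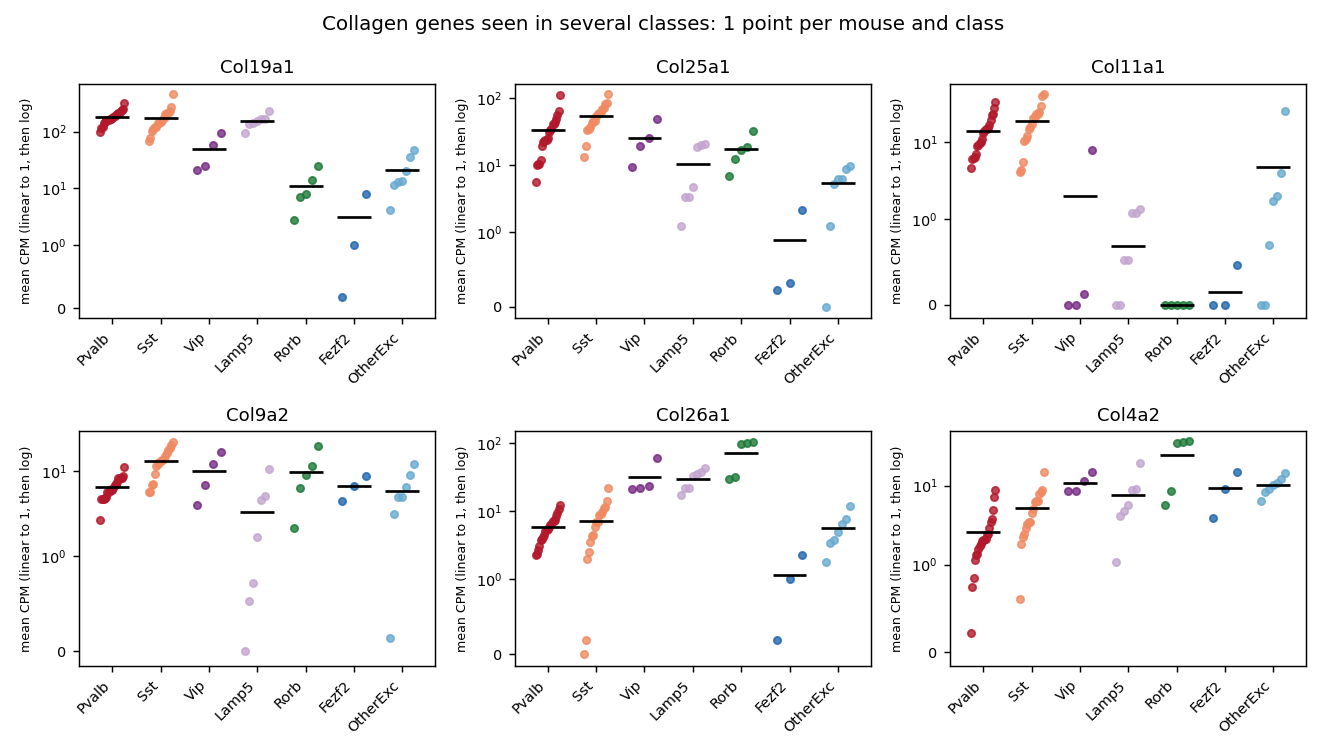
CPM of Col19a1, Col25a1, Col11a1, Col9a2, Col26a1 and Col4a2 by class, 1 point per mouse and class, with a bar at the mean, on an axis that is linear to 1 CPM and logarithmic above. Col11a1 is at 0 in all 5 Rorb profiles and above 4 CPM in each Pvalb and Sst profile, and Col26a1 is highest in Rorb.

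Fibril-forming collagens assemble into the fibrils themselves. In the class contrasts Col11a1 was called higher in Pvalb and Sst, Col24a1 in Vip, Col5a2 in Rorb and Col5a1 in Rorb and Vip, and none of these was called higher in Lamp5, Fezf2 or OtherExc. Col11a1, a chain of the minor type XI collagen that sits inside fibrils, was the gene of Pvalb and Sst cells. Its profiles ran from 4.54 to 32.5 CPM in Pvalb (median 13.1) and from 4.10 to 41.6 in Sst (median 17.1). It was at 0 in all 5 Rorb profiles and at or under 1.35 CPM in Lamp5, while 1 Vip profile (7.94 CPM) and 1 OtherExc profile of eHGT_023h (25.03 CPM) reached the range of Pvalb. The differences were 2.49 ± 0.25 in Pvalb (SE; limma adjusted p = 2.04e-13) and 2.88 ± 0.26 in Sst (SE; adjusted p = 1.27e-14), and both were also called against the inhibitory classes alone (1.85 and 2.29). Col11a1 was lower in excitatory than in inhibitory classes (-1.75 ± 0.30, SE; limma adjusted p = 1.59e-06), a call that was lost within mice (-1.34).

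Col24a1, a fibril-forming collagen found mainly in developing bone, was the gene of Vip cells. Vip profiles were at 9.41 and 17.4 CPM in eHGT_017h, 84.5 in eHGT_019h and 86.4 in hDLXI56i. Lamp5 profiles had at most 0.272 CPM of Col24a1. The highest profile outside Vip was a Pvalb profile at 11.3 CPM, above the lowest Vip profile and below the other 3. The Vip difference was 4.37 ± 0.47 (SE; limma adjusted p = 1.19e-11). The 4 profiles held 42 of the 60 Vip cells. Of the 60, 16 had Col24a1 at 10 CPM or more, with a median of 86.7 CPM among those 16. An annotated transcript on the opposite strand, 9530034A14Rik, overlaps Col24a1, and whether counting used the strand is not given in the sources used here.

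Col5a1 and Col5a2, chains of type V collagen, were low and highest in Rorb cells. Col5a2 was at 0.264 CPM in the eHGT_023h Rorb profile, 7.76, 0.992 and 2.46 in eHGT_058h and 14.2 in eHGT_078h, and at or under 1.41 CPM in every other profile (1.91 ± 0.22, SE; limma adjusted p = 4.57e-11). Of 66 Rorb cells, 7 had Col5a2 at 10 CPM or more. Col5a1 was called in Rorb (1.43) and in Vip (1.24, limma adjusted p = 0.0481), and within mice neither passed (1.11 in Rorb and 1.47 in Vip, adjusted p of 0.166 and 0.224). Its Rorb profiles ran from 0 to 32.1 CPM, so the mean of 9.89 rests on few profiles.

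Basement membrane collagen IV is built from Col4a1 and Col4a2 in most tissues, and Col4a3, Col4a4, Col4a5 and Col4a6 form specialised membranes. The genes lie in head-to-head pairs. On GRCm38.p6 the annotated starts of Col4a1 and Col4a2 are 21 bases apart on chromosome 8, and those of Col4a3 and Col4a4 are 72 bases apart on chromosome 1. The annotated Col4a1 and Col4a2 genes overlap over their short stretch, whereas the Col4a3 and Col4a4 stretch lies upstream of both genes. The stretches between the paired annotated starts are shown because the RNA levels of such close partners can be compared. Capitals mark a match to GGGCGG, searched on both strands with CCAAT and TATAAA.
Col4a2 to Col4a1, chr8:11312805-11312826, plus strand: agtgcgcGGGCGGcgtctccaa
Col4a4 to Col4a3, chr1:82586849-82586921, minus strand: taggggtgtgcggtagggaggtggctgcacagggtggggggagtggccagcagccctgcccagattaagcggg
The second stretch holds none of the 3 motifs. Over 32851 RefSeq promoter windows (250 bases before to 50 after a start), 35.7% held GGGCGG, 37.4% CCAAT and 13.6% TATAAA. These windows are longer than both stretches, so their shares are not a baseline for them. The Col4a2 window held 3 GGGCGG and 1 CCAAT, the Col4a1 window 1 of each, and the Col4a4 window 0 of each motif.

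Col4a1 and Col4a2 were both low, and their detection went together most in Rorb cells. Col4a2 profiles were at 5.62 CPM in eHGT_023h, 8.42, 34.7 and 35.2 in eHGT_058h and 36.7 in eHGT_078h for Rorb, and ran from 0.221 to 8.79 for Pvalb (median 2.03). The 3 highest Rorb profiles lay above every profile of the other classes, and the other 2 lay inside their range. Differences for Col4a2 were 1.45 ± 0.36 in Rorb (SE; limma adjusted p = 8.02e-04) and -1.57 ± 0.22 in Pvalb (SE; adjusted p = 6.59e-09), and both calls were lost within mice (1.05 and -0.68). Col4a1 was lower in Pvalb (-1.38) and Sst (-1.23) and higher in OtherExc (1.21). The OtherExc call of Col4a1 was lost within mice (1.23, limma adjusted p = 0.160), against the excitatory classes alone and without 1 eHGT_023h mouse. Excitatory classes were higher than inhibitory ones for Col4a1 (1.14) and Col4a2 (1.03), and within mice neither call was kept (1.15 and 0.27). At 10 CPM or more, 23 of 66 Rorb cells had Col4a1, 31 had Col4a2 and 17 had both. In Pvalb, the largest class, 32 cells had Col4a1, 47 had Col4a2 and 3 had both. Col4a2 was in 73.9% of the Rorb cells with Col4a1 and in 32.6% of those without. The same shares were 45.5% and 31.1% in Fezf2, 39.5% and 35.4% in OtherExc and 9.38% and 7.68% in Pvalb. At this depth the gap was thus widest in Rorb and small in OtherExc and Pvalb, and it was not tested.

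Col4a4 was found in Lamp5 cells, where its partner Col4a3 was seldom detected. Its Lamp5 profiles were at 10.2, 2.27 and 9.44 CPM in eHGT_019h, 0 in eHGT_058h and 16.6, 10.8 and 4.64 in hDLXI56i. Only 1 Rorb profile (9.05 CPM) and 1 Vip profile (7.05 CPM) came close, and the Lamp5 difference was 2.23 ± 0.28 (SE; limma adjusted p = 7.00e-10). Among the Lamp5 cells, 38 had Col4a4 at 10 CPM or more, 2 had Col4a3 and 0 had both, which allows a share of both in up to 1.73% of cells. Over all 1483 cells the counts were 44, 4 and 0. With Col4a3 in so few cells, these counts cannot show whether the partners go together. Col4a5 (46 cells above 0) and Col4a6 (61 cells), whose starts on the X chromosome are 1309 bases apart, were at 10 CPM or more in 1 and 6 cells.

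Multiplexins are basement membrane proteins whose ends are released as signalling fragments, endostatin in the case of Col18a1. Col18a1 was the gene of OtherExc cells. Its OtherExc profiles were at 2.48 CPM in eHGT_023h, 9.23, 60.6 and 13.3 in eHGT_058h and 13.3, 24.4 and 5.94 in eHGT_078h. Only a Lamp5 profile at 2.70 CPM, among all other classes, reached the lowest of these. The difference was 3.48 ± 0.26 (SE; limma adjusted p = 2.73e-18), and 40 of 120 OtherExc cells had 10 CPM or more against 0 of 66 Rorb and 0 of 56 Fezf2 cells. Slc19a1 overlaps Col18a1 on the opposite strand, as Tcfl5 does Col9a3 and Gm15418 does Col4a1. Col15a1, its relative, had Rorb profiles at 3.78, 0, 0.761, 16.7 and 18.3 CPM (2.04 ± 0.37, SE; limma adjusted p = 4.60e-06). Of 59 Rorb cells without a vascular marker, 9 had Col15a1 at 10 CPM or more. It had 0 reads in 120 OtherExc cells, which allows up to 2.5% of cells with a read. In Vip cells Col15a1 was at 0.200, 0.118 and 0 CPM in 3 profiles and at 47.1 in the hDLXI56i profile. The Vip call (1.13) rests on that mouse, and without it the difference was -0.26.

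**Figure D4:**
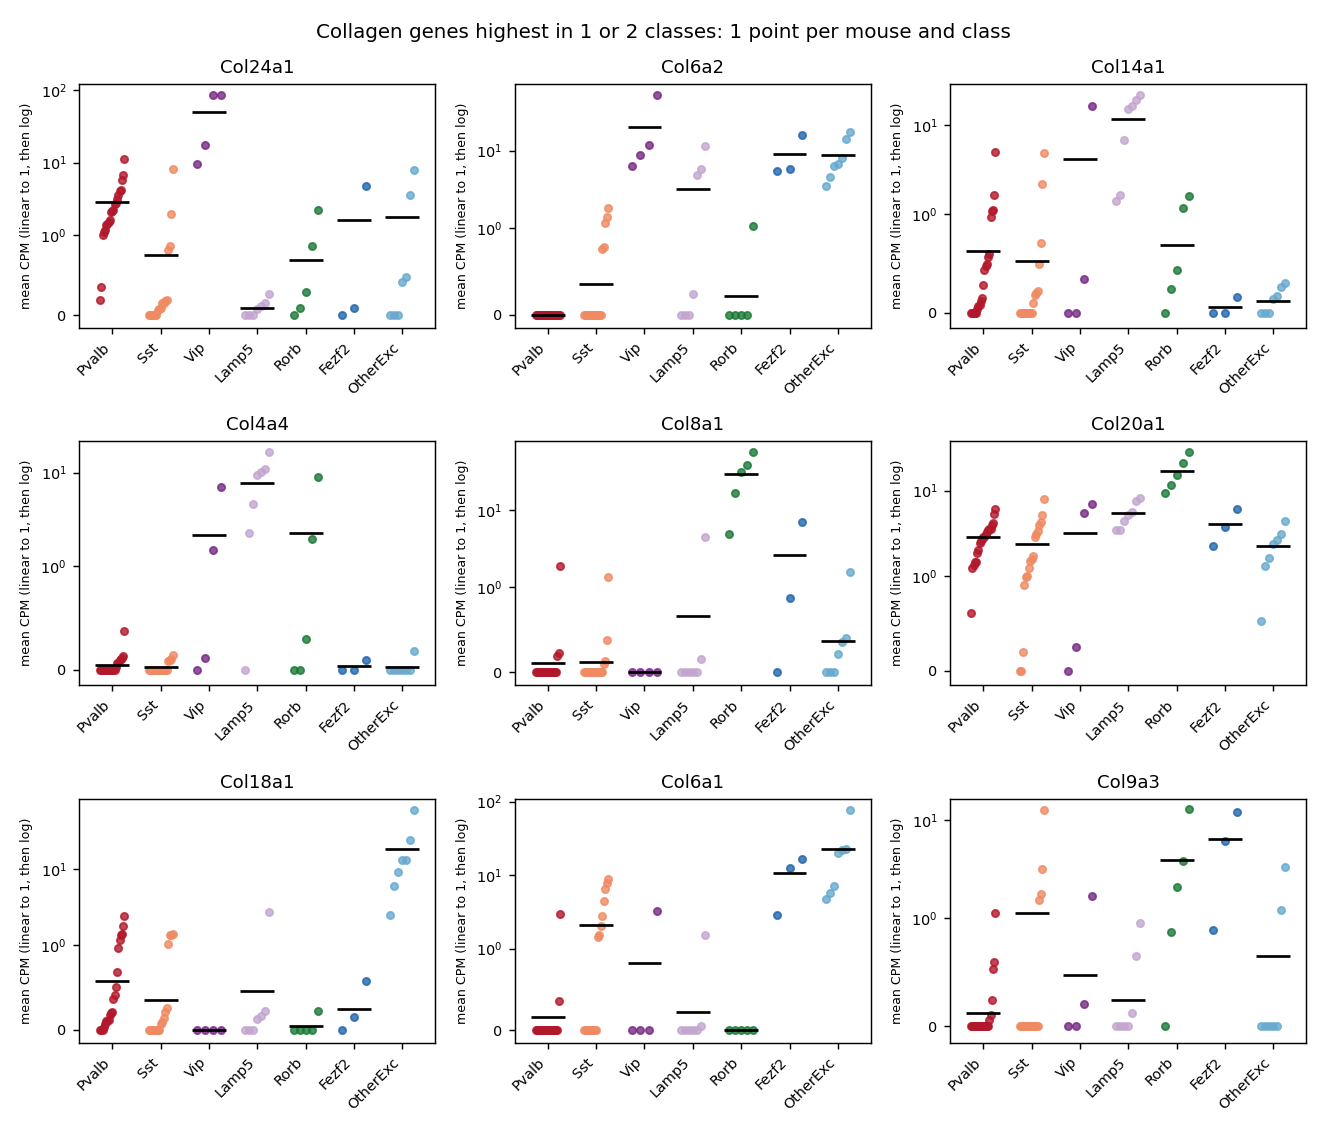
CPM of Col24a1, Col6a2, Col14a1, Col4a4, Col8a1, Col20a1, Col18a1, Col6a1 and Col9a3 by class, 1 point per mouse and class, with a bar at the mean, on an axis that is linear to 1 CPM and logarithmic above. The high points of Col6a2 and Col9a3 are spread over several classes, and other panels are narrower, such as Col8a1 in Rorb (4.86 to 56.9 CPM) and Col24a1 in Vip (9.41 to 86.4 CPM).

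Type VI collagen forms beaded filaments from an alpha-1, an alpha-2 and an alpha-3 class chain. Col6a1 and Col6a2 were both called higher in OtherExc and Fezf2, while Col6a2 and Col6a3 were called higher in Vip. Col6a1 was highest in OtherExc and Fezf2. Its Fezf2 profiles were at 16.5, 12.7 and 2.88 CPM, and its OtherExc profiles ran from 4.76 to 77.8 (median 20.04). It had 0 reads in 66 Rorb cells, which allows up to 4.55% of cells with a read, Pvalb and Lamp5 profiles stayed at or under 2.98 CPM, and Sst profiles reached 8.93. OtherExc was higher by 3.19 ± 0.36 (SE; limma adjusted p = 3.54e-11) and Fezf2 by 2.26 ± 0.53 (SE; adjusted p = 9.82e-04), and within mice the Fezf2 difference was 2.24 with an adjusted p of 0.0866. Col6a2 shared the 2 excitatory classes, at 5.54, 15.7 and 5.86 CPM in Fezf2 and 3.47 to 17.6 in OtherExc, with differences of 1.68 and 1.63. Col6a2 was highest in Vip, at 8.89 and 6.28 CPM in eHGT_017h, 52.6 in eHGT_019h and 11.9 in hDLXI56i (2.51 ± 0.37, SE; limma adjusted p = 1.62e-07), where 13 of 60 cells had Col6a2 at 10 CPM or more and 1 had Col6a1. The Lamp5 profiles of eHGT_019h were at 4.84, 11.4 and 5.80 CPM, and the highest of them lay above 2 of the Vip profiles. Col6a2 had 0 reads in every Pvalb cell, which allows up to 0.496% of cells with a read. Col6a3 was also called higher in Vip, at 1.13, 0.212, 5.15 and 17.7 CPM, against at most 4.21 in a profile of any other class (1.86 ± 0.26, SE; limma adjusted p = 2.79e-08). The Vip profiles at 1.13 and 0.212 CPM lay inside the range of the other classes, and 4 of the 60 Vip cells had Col6a3 at 10 CPM or more. In OtherExc, 39 of 120 cells had Col6a1, 32 had Col6a2 and 15 had both.

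Col7a1, the anchoring fibril collagen of skin, was low, with Vip profiles at 1.002, 2.29 and 2.26 CPM and at 15.5 in the hDLXI56i mouse. The highest class mean, of Vip (5.27 CPM), rests on that mouse, and the other 3 Vip profiles lay inside the range of Pvalb (0.126 to 8.86 CPM, mean 1.99). Its Vip call (1.64 ± 0.36, SE; limma adjusted p = 3.04e-04) was lost within mice, where the difference was 1.58 with an adjusted p of 0.0636. Col8a1 forms hexagonal networks under endothelium and was a Rorb gene. Rorb profiles were at 31.8 CPM in eHGT_023h, 4.86, 16.9 and 38.2 in eHGT_058h and 56.9 in eHGT_078h. The nearest other profiles were in Fezf2 (6.91 CPM) and Lamp5 (4.46 CPM), so 4 of the 5 Rorb profiles lay above all others. The difference was 4.16 ± 0.28 (SE; limma adjusted p = 2.65e-20), 30 of 66 Rorb cells had 10 CPM or more, and Vip profiles were all at 0.

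Transmembrane collagens were led by Col25a1, known for a shed ectodomain found in amyloid plaques. Its profiles ran from 13.1 to 113 CPM in Sst (median 54.5) and from 5.59 to 111.8 in Pvalb (median 24.9), with wide overlap between these classes. Vip profiles were at 19.2 and 47.9 CPM in eHGT_017h, 9.37 in eHGT_019h and 25.5 in hDLXI56i, and Fezf2 profiles at 0.222, 2.13 and 0.312. The Sst difference was 2.41 ± 0.28 (SE; limma adjusted p = 8.50e-11). The Pvalb difference was 1.42, a call that was lost among the 24 mice whose library names begin with G (0.93), and also without any 1 of the eHGT_078h mice. In both cases no Fezf2 class remained, so Pvalb was compared with other classes than in the main fit. Excitatory classes were lower (-2.10 ± 0.32, SE; limma adjusted p = 1.03e-07), a call also lost among those 24 mice (-1.01), where Fezf2 was again absent. Rorb went the other way among the excitatory classes, with a mean of 17.3 CPM against 10.2 in Lamp5. Its difference was 0.58 against the other 6 classes, not called, and 2.54 against the excitatory classes alone, called higher. Col23a1 was highest in OtherExc, from 0 to 12.3 CPM with a median of 6.15 (1.58 ± 0.29, SE; limma adjusted p = 1.04e-05), although 1 Rorb profile of eHGT_058h had 15.1 CPM.

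Col26a1, a small secreted collagen outside these families, was a gene of Rorb, Vip and Lamp5 cells. Rorb profiles were at 31.6 CPM in eHGT_023h, 30.2, 101.5 and 96.2 in eHGT_058h and 104.6 in eHGT_078h. Lamp5 profiles ran from 17.4 to 42.8 CPM (median 33.3), and Vip profiles were at 21.9, 23.2, 21.5 and 60.3. Fezf2 profiles (0.191, 2.24 and 1.003 CPM), OtherExc (up to 11.9) and Pvalb (up to 12.5) lay below all of these, and Sst profiles reached 22 CPM. The Rorb difference was 2.94 ± 0.39 (SE; limma adjusted p = 2.73e-09), and the Lamp5 (1.56) and Vip (1.51) calls were lost within mice. At 10 CPM or more Col26a1 was in 45 of 66 Rorb and 20 of 60 Vip cells and in 57.5% ± 11.4 of Lamp5 cells (SD, n = 7), but in 2 of 56 Fezf2 cells. Col26a1 was also called lower in Pvalb (-1.01), Sst (-1.03), OtherExc (-1.04) and Fezf2 (-2.94). Within mice the Fezf2 call (-2.05, limma adjusted p = 0.0903) and the OtherExc call (-0.41, adjusted p = 0.645) were lost. The Pvalb, Sst and OtherExc differences sit at the log2 threshold of 1. They were -0.08, -0.09 and -0.35 when a profile needed at least 10 cells, a setting that leaves 5 classes, without Rorb and Vip, and so compares with other classes.

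Pvalb and Sst cells share much of their collagen pattern, and 12 mice held enough of both to compare them within an animal. The comparison took 6 genes, the members with at least 5 CPM in either class mean. Col4a2 entered through Sst alone (5.19 CPM, against 2.61 in Pvalb), so its difference is not read, and the other 5 reached 5 CPM in both classes (6 exact sign-flip tests, 2-sided, Benjamini-Hochberg over the 6). Col9a2 was higher in Sst in 11 of 12 mice, by 0.84 on the log2 scale (SD 0.80 over 12 mice; exact p = 0.00439, adjusted 0.0264). Col11a1 was higher in Sst in 10 of 12 mice by 0.59 and Col25a1 in 10 by 0.54, with adjusted exact p of 0.0703 and 0.305. Col26a1 (0.11, 6 of 12 mice) and Col19a1 (-0.04, 5 of 12 mice) showed no direction, with adjusted exact p of 0.889 and 0.891. The Sst minus Pvalb difference did not differ detectably between the 4 enhancers that gave these mice (permutation tests with 100000 resamples, adjusted p from 0.466 to 0.912). In 1 hDLXI56i mouse Col19a1 stood at 461.8 CPM in Sst and 98.8 in Pvalb cells, the widest gap of the 12.

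**Figure D5:**
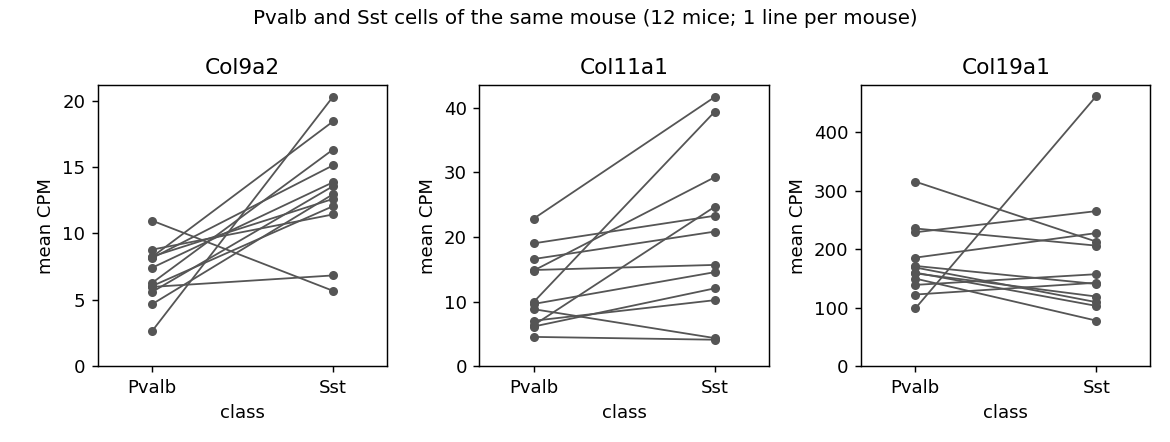
CPM of Col9a2, Col11a1 and Col19a1 in Pvalb and Sst cells of the same mouse, 1 line per mouse for 12 mice of 4 enhancers. Lines of Col9a2 go up from Pvalb to Sst in 11 mice, whereas Col19a1 goes up in 5.

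The 21 collagen genes not described by name above in their own right were low: the highest class mean among them was 3.39 CPM, of Col22a1 in Fezf2. Col22a1, a collagen of tissue junctions, was picked here after its values were seen, since it was called higher in Fezf2 (1.51), OtherExc (1.297) and excitatory against inhibitory classes (1.52 ± 0.17, SE; limma adjusted p = 1.19e-11). It had 0 reads in 60 Vip cells, which allows up to 5% of cells with a read. The class tests left out 6 members that did not reach the filter: Col1a1, Col1a2, Col3a1, Col4a5, Col10a1 and Col17a1.

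Lists of collagen enzymes and receptors were counted the same way. Of 17 tested genes for chain assembly (prolyl and lysyl hydroxylases and their chaperones), 16 differed between classes, and of 11 for processing (propeptide cleavage and crosslinking), 6 did. Of 11 collagen receptors, 8 differed between classes. Over all genes the share was 68.9%, above that of the processing list. Between enhancers 8 of 17, 6 of 10 and 5 of 11 differed, against 53.4% of all genes. Between enhancers within Pvalb and within Sst profiles, where the shares over all genes were 1.42% and 0.785%, 0 genes of each list passed, so nothing is read from these counts. P4ha1, a catalytic subunit of prolyl 4-hydroxylase, averaged 100.6 CPM in OtherExc and 23.7 in Pvalb, and was higher in excitatory than inhibitory classes (1.18 ± 0.18, SE; limma adjusted p = 7.47e-08). P4hb, the partner subunit, was lower in Rorb at 44.2 against 132.7 CPM in the other classes (-1.86). P3h4, a component of the lysyl hydroxylation machinery, was higher in Vip at 29.5 CPM (2.36). Bmp1, which cleaves procollagen, was higher in OtherExc at 23.6 CPM (2.04) and in Rorb at 20.99 (1.88), and its relative Tll1 was higher in Pvalb at 22.9 CPM (3.29 ± 0.26, SE; adjusted p = 7.01e-18). The receptor Ddr2, a kinase activated by collagen, was higher in Lamp5 at 46.1 CPM against 2.53 elsewhere (4.33 ± 0.32, SE; limma adjusted p = 1.39e-18). Over all 8 contrasts, assembly genes gave from 0 to 2 higher and 0 to 4 lower calls, processing genes 0 to 3 and 0 to 4, and receptors 0 to 2 and 0 to 1.

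Marker genes of cells rich in collagen IV were low and not even across classes. The summed level of endothelial markers was at most 5.74 CPM in any profile and that of mural and leptomeningeal markers at most 17.1, with medians of 0.575 and 0.717. Endothelial markers were highest in Rorb, the class with the highest Col4a2, at a mean of 2.99 CPM (lowest profile 1.63, highest 5.74) against 0.577 in Pvalb, although Cldn5, Cdh5 and Ly6c1 were at 0 in Rorb. Mural and leptomeningeal markers were highest in Sst, at a mean of 4.88 CPM, where Col4a1 averaged 2.19. Of 1483 cells, 97 had any of these 13 markers at 10 CPM or more. In the 59 Rorb cells without such a marker Col4a2 averaged 23.1 CPM, against 2.21 in Pvalb cells without one, and Col4a1 was at 10 CPM or more in 20 of the 59. Astrocyte markers summed to a mean of 59.2 CPM in Rorb and 30.3 in OtherExc against 2.23 in Pvalb, of which Aldh1l1 made 50.8 and 25.2, while Aqp4 and Gja1 were at 1.18 and 0.155 in Rorb. Oligodendrocyte markers reached 803 CPM in 1 Sst profile of eHGT_023h (next highest profile 184.3, median 3.87), and microglial markers at most 3.20. The part of astrocyte and oligodendrocyte RNA in the collagen differences was not tested.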

How the data were processed

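Single sorted cells were sequenced from polyadenylated RNA with SMART-Seq v4 (per the labels' protocols), and the authors deposited 1 table of CPM, the reads of a gene scaled to the same total in every cell. STAR and mm10 appear in the submitters' processing notes, with neither version nor role. Not given in the sources used here are the counter, its annotation, the strand setting, cell filters and any doublet step. Reads were recovered from the CPM, since 100% of nonzero values came out whole (tolerance 0.01 read). Reads carry no molecular identifiers and are not independent molecules, so limits given for 0 counts cover counting error only. No 2 cells held identical values. Mice gave 32 to 53 cells and 17123364 to 35856031 reads each.

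The replicate is the mouse, and a profile is the mean CPM of at least 5 cells of 1 class in 1 mouse. limma 3.58.1 (R 4.3.3, statmod 1.5.0; trended and robust) was fitted to log2(mean CPM + 1) of all genes reaching 1 CPM in 2 or more mice, with the mouse as a block by estimated correlation for classes, and p-values were adjusted over all genes. Class means weigh mice equally. The script was tested on simulated data. Other tools were Python 3.11.15, numpy 2.4.6, pandas 2.3.3, scipy 1.17.1 and matplotlib 3.10.9. Gene positions and overlaps are from the GENCODE annotation of GRCm38.p6, and 35 members matched a RefSeq promoter.

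Members, lists and classes were chosen with earlier results of these data known. Values are given for the 23 genes with a class mean of at least 10 CPM, or called in a class contrast and reaching 5 CPM on the higher side, and from the enzyme and receptor lists for called genes of at least 20 CPM. Library names begin with G in 24 mice and J in 9, a difference whose nature is not given, and the letter was used as a covariate in an alternative. A planned edgeR test was not run, because the table holds CPM, and limma voom on the recovered reads took its place. Lamp5 was not compared between enhancers, since only 2 enhancers gave at least 2 profiles. One marker result is not reported here.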

Additional observations from a re-analysis of the deposited data

Results flagged for a closer look

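In 6 of 26 groups of 4 to 10 mice, 1 mouse stood apart from the others by Dixon's 95% criterion. Normally distributed values meet it by chance in about 1 of 20 groups. Mean CPM of genes seen in few cells need not be so distributed, so nothing is read from the number of groups flagged. In OtherExc cells, Col6a1 was at 77.8 CPM in 1 eHGT_078h mouse, with the next mouse at 23 CPM. Also in OtherExc, Col18a1 was at 60.6 CPM in 1 eHGT_058h mouse, with the next at 24.4. In Vip cells, Col6a2 was at 52.6 CPM in the eHGT_019h mouse, with the next at 11.9. The hDLXI56i mouse among the Vip profiles stood apart for Col15a1 (47.1 CPM, next 0.200) and for Col26a1 (60.3 CPM, next 23.2). Over all cells of a mouse, Col19a1 was at 246.96 CPM in 1 eHGT_064h mouse, with the next of that enhancer at 138.1.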

How the results depend on the processing

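Main counts of collagen genes were 10 in Pvalb, 9 in Sst, 8 each in Vip, Lamp5 and Fezf2, 12 in Rorb, 10 in OtherExc and 11 for excitatory against inhibitory classes. A pseudocount of 0.1 CPM gave 16 in Pvalb, 19 in Sst and 21 for excitatory classes. A pseudocount of 10 CPM gave 1 in Pvalb, 3 in Sst, 1 in Vip, 1 in Lamp5, 4 in Rorb, 3 in Fezf2, 3 in OtherExc and 2 for excitatory classes. The mean over cells of log2(CPM + 1) gave 3, 4, 2, 4, 6, 3, 4 and 5 in the order Pvalb, Sst, Vip, Lamp5, Rorb, Fezf2, OtherExc and excitatory, and 1 gene, Col11a1, between enhancers within Sst. With the mouse as a fixed effect, which is the replicate block of this design, Vip and Fezf2 gave 4 each. limma voom on recovered reads gave 23 in Pvalb, 18 in Sst and 19 for excitatory classes. Without cells bearing a vascular marker 1 gene passed within Sst, Col6a1, which also passed without 1 hDLXI56i mouse (both named after their values were seen), and against inhibitory classes alone Pvalb gave 6.
Leaving out 1 mouse at a time gave 7 to 10 in Pvalb, 7 to 10 in Sst, 5 to 12 in Vip (5 without 1 eHGT_078h mouse), 7 to 10 in Lamp5, 12 to 14 in Rorb, 8 to 8 in Fezf2, 9 to 12 in OtherExc, 10 to 14 for excitatory classes, 28 to 32 between classes, 19 to 22 between enhancers, 0 to 0 within Pvalb and 0 to 1 within Sst. Fezf2 had too few profiles to test without an eHGT_078h mouse, so its 8 to 8 covers only fits that kept all of its profiles.
Of 76 calls followed, 51 held without each mouse in turn. The Fezf2 calls are among the 51, but they were followed only over the 30 fits that kept every eHGT_078h mouse, the source of all Fezf2 profiles. These fits could not show whether a Fezf2 call rests on 1 mouse. Of 1177 values under other settings 948 kept their call, 4 turned and the rest lost it. Those 4 were Col24a1 in excitatory classes with at least 10 cells per profile (0.29), Col9a3 in excitatory classes within mice (-0.37), and Col19a1 in Rorb (0.53) and OtherExc (1.72) against excitatory classes alone. Col15a1 in Vip turned without the hDLXI56i mouse, and leaving out 1 mouse gave -0.26 to 1.63. The cause was not tested. Rescaling by median ratios moved the median of all genes to -0.10 in Sst, -0.10 in Vip and 0.12 in Rorb, and voom to -0.11 in Pvalb, 0.13 in Rorb and 0.11 for excitatory classes. With at least 10 cells per profile, Vip and Rorb had too few profiles, and edgeR was not run. At the median depth 1 read is 1.71 CPM, so genes under a few CPM rest on few reads.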
